A study of Rattus norvegicus with 20 samples.

Results

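The subject here is 7 classical target genes of the glucocorticoid receptor in rat liver: Fkbp5, Tsc22d3, Sgk1, Dusp1, Klf9, Errfi1 and Nfkbia. They were chosen by gene name, each name matched 1 identifier, and they are 7 of 32883 genes in the table. Liver RNA came from 20 male rats, 5 in each of 4 groups, and every rat gave 1 library. The control group, CON, was given 0.5% CMC-Na (sodium carboxymethylcellulose, a vehicle), and the group BGZ_L was given a powder of that name at a dose of 0.9 g/kg. The group KYDS was given the glucocorticoid hydrocortisone at a dose of 25 mg/kg, and the group KYDS+BGZ_L both agents at those doses; the series title speaks of Psoraleae Fructus, a medicinal fruit, and of kidney-yang deficiency syndrome. The sources used here do not state strain, age, number of doses or the hour of sampling. All 7 genes passed the filter on low values and were tested among 11860 genes.

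A glucocorticoid enters the cell and binds the glucocorticoid receptor (Nr3c1), which is held in the cytosol by heat shock protein chaperones. The bound receptor moves to the nucleus, where it attaches to glucocorticoid response elements in DNA and raises or lowers nearby transcription. In liver this programme is known for driving glucose production and for restraining inflammation. Errfi1 encodes a feedback inhibitor of the epidermal growth factor receptor, and Dusp1 a phosphatase that switches off MAP kinases. Nfkbia encodes an inhibitor of the transcription factor NF-kB, Tsc22d3 the anti-inflammatory protein GILZ, and Fkbp5 a chaperone partner that lowers the receptor's own affinity for hormone. Sgk1 is a kinase of ion transport and growth signalling, and Klf9 a zinc-finger transcription factor that also responds to the circadian clock.

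Between KYDS and CON Dusp1 and Errfi1 rose and Nfkbia fell on scaled values, so the 250 bases before an annotated start of these 3 genes are shown, 5′ to 3′ on the gene's strand, from RefSeq on the GRCr8 build. Dusp1 lies at chr10:17184603-17184852 on the plus strand, Errfi1 at chr5:166606591-166606840 on the plus strand and Nfkbia at chr6:78597073-78597322 on the minus strand. Capitals mark every match, on either strand, to the searched letters.
Dusp1: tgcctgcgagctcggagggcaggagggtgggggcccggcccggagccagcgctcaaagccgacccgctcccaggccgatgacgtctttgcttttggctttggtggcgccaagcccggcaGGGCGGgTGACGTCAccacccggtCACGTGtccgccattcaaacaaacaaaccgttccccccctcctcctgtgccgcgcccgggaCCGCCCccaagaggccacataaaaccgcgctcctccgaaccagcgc
Errfi1: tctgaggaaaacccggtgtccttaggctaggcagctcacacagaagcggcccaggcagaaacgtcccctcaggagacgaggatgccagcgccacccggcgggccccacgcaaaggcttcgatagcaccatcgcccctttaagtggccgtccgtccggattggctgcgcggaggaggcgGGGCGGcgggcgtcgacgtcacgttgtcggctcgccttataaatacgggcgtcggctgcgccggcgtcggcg
Nfkbia: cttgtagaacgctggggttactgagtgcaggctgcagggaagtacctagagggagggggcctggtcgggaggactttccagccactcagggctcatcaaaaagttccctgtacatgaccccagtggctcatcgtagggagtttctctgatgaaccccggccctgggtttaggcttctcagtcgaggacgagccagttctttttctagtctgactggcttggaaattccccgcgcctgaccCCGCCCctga
The Dusp1 window held 1 CRE (TGACGTCA, the cyclic AMP response element, first base 127 counted from the 5′ end of the window) and 1 E-box (CACGTG, first base 144), found in 1.59% and 5.59% of 33469 rat promoter windows of this length. It also held 2 GC boxes (GGGCGG), and the Errfi1 and Nfkbia windows held 1 each, where 30.5% of all windows held at least 1. All 7 genes matched the RefSeq table by symbol, with 11 windows in all (3 each for Sgk1 and Tsc22d3). No window of the 7 genes held the letters AGAACA, a hexamer of the glucocorticoid response element (17.5% of all windows). A fixed palindrome of that element and a fixed NF-kB string were searched as well, but each is only 1 of many forms these factors bind, so the search says nothing of sites in other letters. These letters describe short windows next to the start only.

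The deposited values were read as TPM (a level scaled for transcript length and library total), so the read depth of each library is unknown. They summed to 914343 to 983962 per library, and the mitochondrially encoded genes took 19.2% (KYDS 3) to 90.1% (CON 2) of that sum. Mean shares were 75.1% ± 10.2 (SD, n = 5) for CON against 42.4% ± 18.0 for KYDS (exact two-sided permutation test, p = 0.0238). For BGZ_L the mean was 67.3% ± 17.3, against 48.9% ± 17.7 for KYDS+BGZ_L (p = 0.135 by the same exact test, whose smallest possible p is 0.00794). With 1 library left out this p ran from 0.0397 (without BGZ_L 1) to 0.254 (without KYDS+BGZ_L 1), and was below 0.05 in 1 of 10 cases. Levels were therefore scaled between libraries before testing, with scaling factors from 0.220 (CON 2) to 2.11 (KYDS 2), and levels below are scaled TPM unless called deposited. Left unscaled, the typical gene (median) stood 1.03 log2 above CON in KYDS and 0.63 above BGZ_L in KYDS+BGZ_L. All 8 hepatocyte markers were above 0 in every library. Fold changes are log2 differences ± SE from 1 limma fit of all 20 libraries, on log2(scaled TPM + 0.5), with two-sided p-values adjusted over 11860 genes.

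Dusp1 rose between KYDS and CON and had the largest difference of the 7 genes in that comparison. In CON its level was 9.72, 7.22, 5.58, 31.3 and 18.1 in rats 1 to 5. In KYDS it was 47.7, 51.2, 47.1, 59.3 and 53.5. All 5 KYDS livers lay above all 5 CON livers, and CON 4 was the highest of the controls. In BGZ_L the level was 17.7, 9.23, 10.3, 3.30 and 9.0, and in KYDS+BGZ_L it was 18.1, 18.8, 14.4, 16.6 and 34.3. These last 2 groups overlapped only through BGZ_L 1, and KYDS+BGZ_L 5 stood above its group. Between KYDS and CON Dusp1 rose by 2.08 ± 0.41 log2 (4.23-fold, limma adjusted p = 0.00989), the 229th largest change of 11860 genes. It was also above 0 without scaling (3.44, adjusted p = 4.8e-04) and over nuclear TPM (2.26, adjusted p = 0.0308). With the nuclear to mitochondrial ratio in the limma fit it was at 1.82 and did not pass (adjusted p = 0.282). In rats that all received BGZ_L the difference was 1.10 ± 0.41 log2 and did not pass (adjusted p = 0.0705), with 23 of 25 pairs of rats higher under hydrocortisone. That comparison passed without CON 4 (adjusted p = 0.0417) or BGZ_L 1 (adjusted p = 0.0277), and in none of the other fits without 1 library (up to 0.188 without BGZ_L 4). It passed without scaling (1.97, limma adjusted p = 0.0246) but not over nuclear TPM (1.29, 0.149). With the nuclear to mitochondrial ratio in the fit it did not pass either (0.96, 0.24).

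Errfi1 was the most abundant of the 7 genes in every group and rose with hydrocortisone alone. Its level in CON was 47.5, 27.3, 40.4, 115 and 99.0, and in KYDS 118, 169, 114, 164 and 113. The groups overlapped only at CON 4, which lay between KYDS 3 and 5 and the other KYDS rats. In BGZ_L the level was 79.1, 45.8, 41.2, 38.5 and 58.0, and in KYDS+BGZ_L 53.9, 45.2, 25.1, 47.5 and 36.3. All KYDS+BGZ_L livers lay below every KYDS liver, and 4 of the 5 lay within the range of the livers without hydrocortisone, KYDS+BGZ_L 3 being lower. Errfi1 rose by 1.22 ± 0.35 log2 between KYDS and CON (2.33-fold, limma adjusted p = 0.043). With BGZ_L in both groups the difference was -0.33 ± 0.35 (adjusted p = 0.551), and 0.56 without scaling (adjusted p = 0.508). The rise under KYDS did not pass without CON 1, CON 2, CON 3, any of the 5 KYDS rats, BGZ_L 5 or KYDS+BGZ_L 5 (adjusted p = 0.0521 to 0.127, the highest without CON 2), nor over nuclear TPM (1.38, adjusted p = 0.213) or with no filter on low values (1.22, adjusted p = 0.0729).

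Nfkbia was lower with hydrocortisone in both comparisons on the scaled values. Its level was 15.2, 12.7, 14.7, 16.3 and 14.6 in CON and 7.58, 10.1, 8.16, 10.8 and 7.06 in KYDS. In BGZ_L it was 13.5, 18.5, 15.8, 19.3 and 11.9, and in KYDS+BGZ_L 5.71, 4.83, 7.53, 5.28 and 5.33. No liver with hydrocortisone reached the lowest liver of its comparison group. Nfkbia fell by 0.73 ± 0.19 log2 between KYDS and CON (limma adjusted p = 0.0317), where the unscaled difference had the opposite sign (0.63, adjusted p = 0.286). It fell by 1.38 ± 0.19 between KYDS+BGZ_L and BGZ_L (limma adjusted p = 2.8e-04), and was at -0.53 there without scaling (adjusted p = 0.432). The first fall did not pass without CON 1, CON 2, CON 3, KYDS 1, KYDS 3 or KYDS 5 (adjusted p = 0.0521 to 0.0879, the highest without KYDS 5), whereas the second passed whichever library was left out (highest adjusted p = 0.00167). Over nuclear TPM neither passed (-0.61, adjusted p = 0.593, and -1.29, adjusted p = 0.107).

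**Figure D1:**
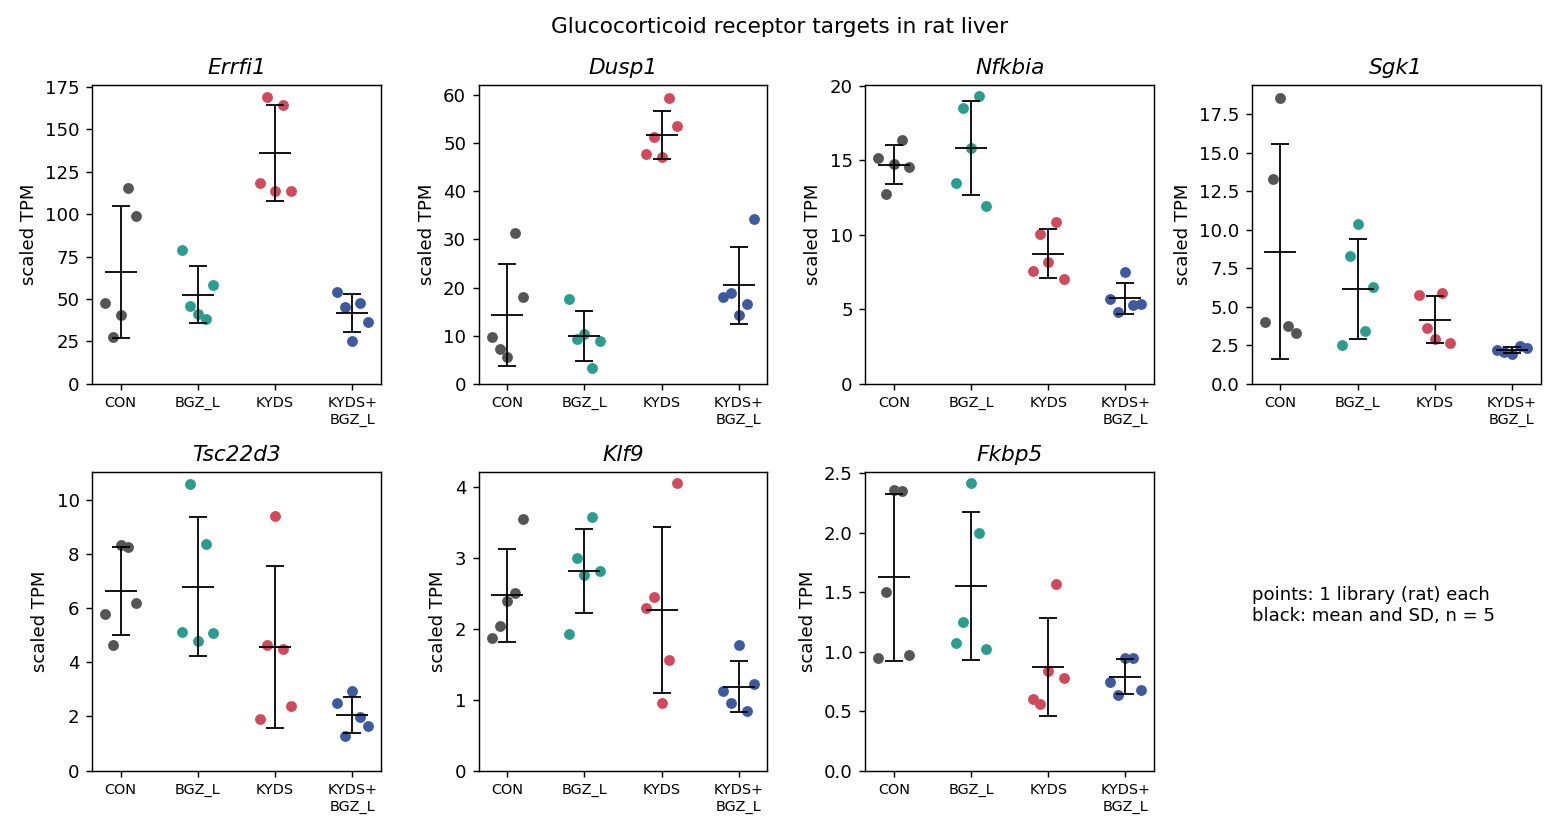
Scaled TPM of the 7 genes (vertical axes, from 0, 1 panel per gene) in the 4 groups, with 1 point per library and black marks for mean and SD (n = 5). Dusp1 in KYDS (47.1 to 59.3) lies above every CON library (5.58 to 31.3), and Errfi1 in KYDS (113 to 169) above every KYDS+BGZ_L library (25.1 to 53.9). The lower Nfkbia points of KYDS against CON depend on the scaling, since the unscaled difference is 0.63 log2.

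The ratio of 2 genes within a library does not depend on scaling, and it separated Dusp1 and Errfi1 from Nfkbia. On deposited TPM the ratio of Dusp1 to Nfkbia had a median of 0.641 (0.379 to 1.92) in CON and 5.77 (5.08 to 7.58) in KYDS. It was 0.651 (0.171 to 1.31) in BGZ_L and 3.18 (1.91 to 6.43) in KYDS+BGZ_L. In each pair the ranges with and without hydrocortisone did not overlap. The ratio of Errfi1 to Nfkbia had a median of 3.13 (2.15 to 7.07) in CON and 15.6 (13.9 to 16.8) in KYDS, without overlap. It was 2.60 (1.99 to 5.87) in BGZ_L and 8.99 (3.34 to 9.45) in KYDS+BGZ_L, where KYDS+BGZ_L 3 fell within the BGZ_L range. By contrast the ratio of Tsc22d3 to Nfkbia overlapped in all 4 groups, with medians from 0.373 to 0.426. The ratios of Sgk1, Klf9 and Fkbp5 to Nfkbia overlapped in all 4 groups as well. These ratios show unequal change between 2 genes and do not say which of them changed. Dusp1, Errfi1 and Nfkbia had already passed in KYDS against CON on scaled values, so their ratios are no separate test. The share of all genes whose ratio to Nfkbia separates was not counted.

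**Figure D2:**
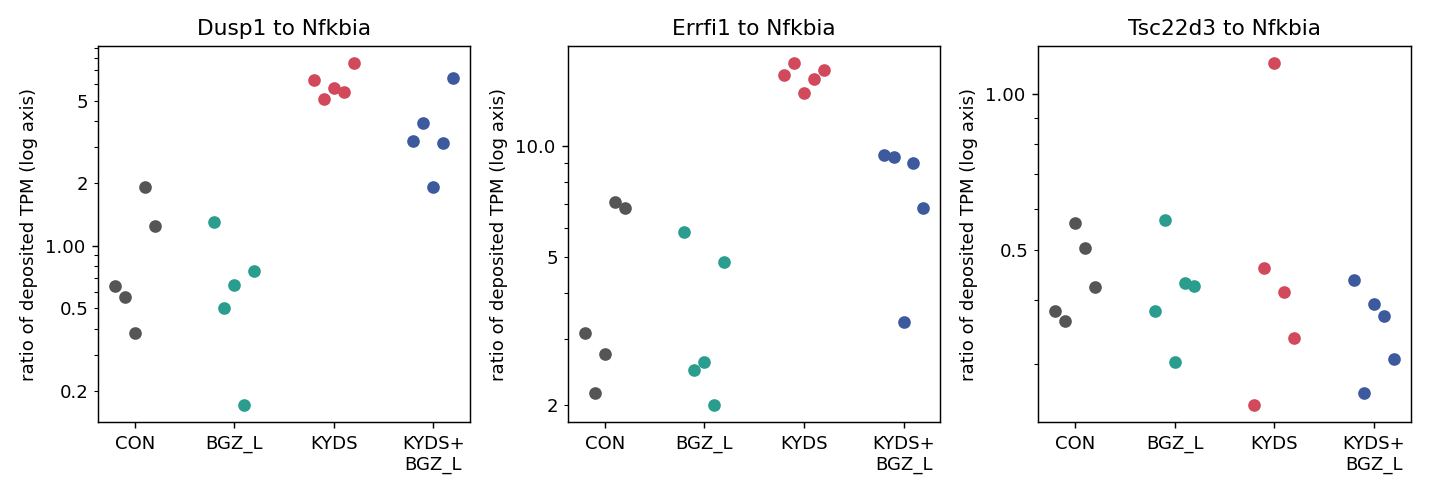
Ratios of deposited TPM within each library (logarithmic vertical axes) for Dusp1, Errfi1 and Tsc22d3 over Nfkbia, 1 point per library in the 4 groups. The Dusp1 ratio is 5.08 or more in KYDS and 1.92 or less in CON, while the Tsc22d3 ratio overlaps between all groups.

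Tsc22d3, Klf9, Sgk1 and Fkbp5, the other 4 targets, did not pass in KYDS against CON. Tsc22d3 was at 5.78, 4.63, 8.32, 8.25 and 6.17 in CON and at 1.89, 4.65, 9.41, 4.49 and 2.37 in KYDS. KYDS 3, the liver with the lowest mitochondrial share, held the highest Tsc22d3 level of its group. The difference was -0.65 ± 0.33 log2 (limma adjusted p = 0.245). In BGZ_L the gene was at 5.13, 10.6, 4.8, 8.36 and 5.09, and in KYDS+BGZ_L at 2.49, 1.28, 2.95, 1.97 and 1.64, with no overlap. There Tsc22d3 fell by 1.48 ± 0.33 (2.79-fold, limma adjusted p = 0.0065), with a highest adjusted p of 0.0205 over the 20 fits without 1 library. Unscaled, the 2 differences were 0.60 (adjusted p = 0.348) and -0.72 (adjusted p = 0.33), and the second did not pass over nuclear TPM either (-1.49, adjusted p = 0.106).

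Klf9 was at 1.87, 2.04, 2.39, 2.51 and 3.54 in CON and at 2.29, 2.45, 0.948, 1.56 and 4.05 in KYDS, a difference of -0.18 ± 0.26 log2 (limma adjusted p = 0.708). The KYDS rats spread to both sides of the controls. In BGZ_L it was at 1.93, 2.99, 2.76, 3.57 and 2.82 and in KYDS+BGZ_L at 1.12, 0.955, 1.77, 0.842 and 1.23, again with no overlap. In that comparison Klf9 fell by 0.98 ± 0.26 (limma adjusted p = 0.0157), and without KYDS+BGZ_L 4 it did not pass (adjusted p = 0.0501). Unscaled, the differences were 0.94 (adjusted p = 0.0762) and -0.32 (adjusted p = 0.596), and the second was -1.04 over nuclear TPM (adjusted p = 0.244).

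Sgk1 spread the most of the 7 relative to its mean in CON livers (8.59 ± 6.96, SD, n = 5). Its level was 3.99, 13.3, 18.5, 3.78 and 3.31 in CON, 2.54, 8.26, 10.4, 3.45 and 6.26 in BGZ_L and 5.76, 3.61, 2.93, 5.89 and 2.68 in KYDS. On scaled levels the KYDS+BGZ_L livers lay in a narrow range of 1.96 to 2.44, below every other liver in the study. On deposited TPM they ran from 1.87 to 4.04, and BGZ_L 1 (1.21) and CON 5 (1.80) were lower. Neither hydrocortisone comparison passed, at -0.68 ± 0.43 log2 alone (limma adjusted p = 0.34; 0.62 without scaling) and -1.16 ± 0.43 with BGZ_L (adjusted p = 0.0673). The latter passed without CON 3 (adjusted p = 0.0339) or BGZ_L 1 (adjusted p = 0.0269), and in none of the other fits without 1 library (up to 0.171 without BGZ_L 3). It was -0.38 without scaling (limma adjusted p = 0.552) and -1.13 over nuclear TPM (0.311). With the nuclear to mitochondrial ratio in the fit it was -0.63 (0.373).

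Fkbp5 was the least abundant, at 0.946 to 2.36 in CON (median 1.5), 1.02 to 2.42 in BGZ_L (median 1.25), 0.563 to 1.57 in KYDS (median 0.776) and 0.634 to 0.946 in KYDS+BGZ_L (median 0.743). CON and KYDS overlapped through KYDS 4, while BGZ_L and KYDS+BGZ_L did not overlap. The differences with hydrocortisone were -0.61 ± 0.26 log2 alone (limma adjusted p = 0.151; 0.29 without scaling) and -0.63 ± 0.26 with BGZ_L (adjusted p = 0.0972; -0.03 without scaling). A log2 scale with an added constant understates the change of so low a gene.

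Counted together, 2 of the 7 rose and 1 fell between KYDS and CON, and 4 did not pass, where 5.67% of all genes passed (2.45% higher and 3.22% lower). Between KYDS+BGZ_L and BGZ_L 3 of 7 fell, none rose and 4 did not pass, where 17.1% of all genes passed (8.02% higher and 9.11% lower). On scaled levels groups did not overlap for 2 and 5 of the 7, against 6.25% and 13.1% of all genes. On deposited TPM Nfkbia overlapped in both comparisons, and Tsc22d3, Klf9, Sgk1 and Fkbp5 overlapped between BGZ_L and KYDS+BGZ_L. Dusp1 was there at 3.29 to 8.44 in BGZ_L and 13.7 to 44.8 in KYDS+BGZ_L, without overlap. Deposited Dusp1 and Errfi1 also did not overlap between CON and KYDS. The share of all genes separated on deposited TPM was not counted. The median difference of the 7 was -0.61 and -0.98 log2, and that of all genes -0.01 and 0.01. The 2 comparisons share no library but share the estimate of spread. The differences between the 2 responses, tested as an interaction, did not pass for any of the 7. Those of Errfi1 (-1.55 ± 0.49, 95% interval -2.56 to -0.53), Klf9 (-0.80 ± 0.37) and Nfkbia (-0.65 ± 0.27) had unadjusted p-values of 0.00486, 0.0437 and 0.0254 in limma, with an adjusted p of 1 each. That is 3 of 7, where 3.84% of all genes had an unadjusted p below 0.05 and 0.0253% passed.

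**Figure D3:**
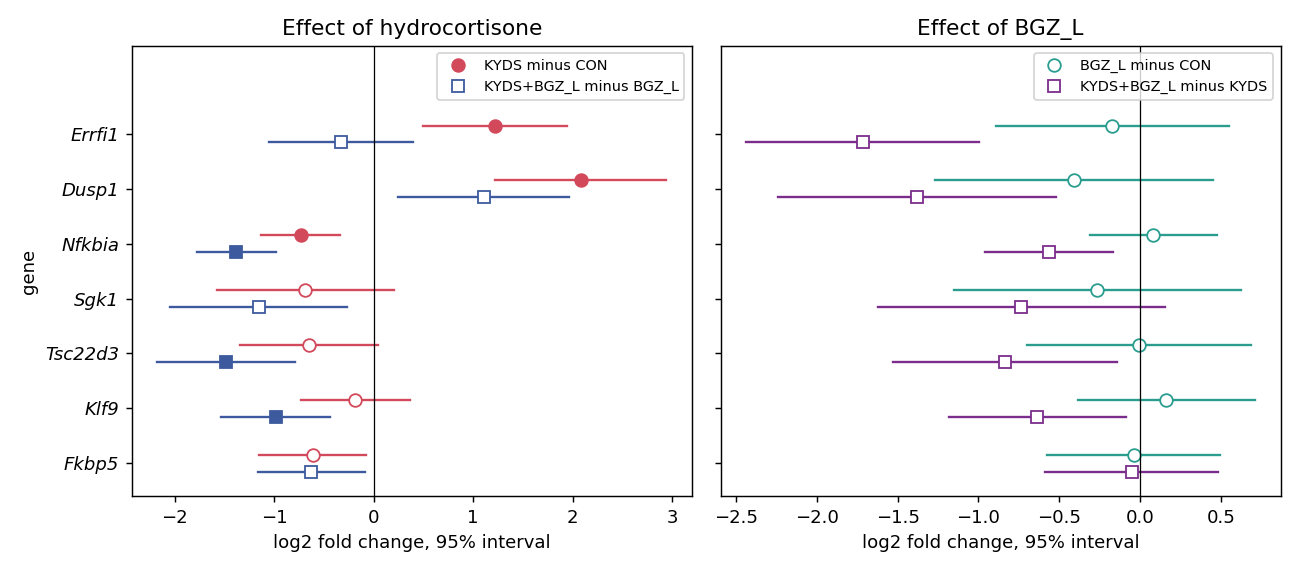
Log2 fold changes (horizontal axes) with 95% intervals for each gene, for hydrocortisone without and with BGZ_L (left) and for BGZ_L without and with hydrocortisone (right). Filled symbols passed at an adjusted p of 0.05: Errfi1, Dusp1 and Nfkbia for hydrocortisone alone, Nfkbia, Tsc22d3 and Klf9 with BGZ_L, and none on the right. Without scaling the sign of Nfkbia for hydrocortisone alone turns.

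BGZ_L was then compared with no BGZ_L, first in rats without hydrocortisone. None of the 7 passed between BGZ_L and CON in limma, none had an unadjusted p below 0.05, and the groups of all 7 overlapped, where those of 0.624% of all genes did not. Of all genes tested 0% passed and 6.16% had an unadjusted p below 0.05. The differences ran from -0.41 ± 0.41 log2 (Dusp1, 95% interval -1.27 to 0.45) to 0.16 ± 0.26 (Klf9, -0.38 to 0.71). For Nfkbia, which varied least, the interval was -0.31 to 0.48. The intervals leave room for moderate differences in either direction.

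In rats given hydrocortisone all 7 targets had a fitted level below KYDS when BGZ_L was added, as 50.6% of all genes did, but none passed in limma. Errfi1 came closest. Its mean level was 136 ± 28.3 (SD, n = 5) in KYDS and 41.6 ± 11.2 in KYDS+BGZ_L, a difference of -1.72 ± 0.35 log2 (3.29-fold, 95% interval -2.44 to -1.0, adjusted p = 0.0556). This was the 65th largest change of 11860 genes. Errfi1 passed with 1 as the added constant (adjusted p = 0.0491), with the nuclear to mitochondrial ratio in the fit (0.0484), without CON 2 and BGZ_L 3 (0.0348), and without CON 2 (0.0246), CON 4 (0.0258), CON 5 (0.0425) or BGZ_L 1 (0.0454). It did not pass without scaling (0.467), over nuclear TPM (0.332), with median-ratio scaling (0.0553), with no filter (0.0790), or in the other 16 of 20 fits without 1 library (up to 0.180 without KYDS 2). Dusp1 went from 51.8 ± 4.97 to 20.4 ± 7.92, a difference of -1.38 ± 0.41 log2 (adjusted p = 0.482). Both genes were lower in every KYDS+BGZ_L liver than in any KYDS liver, on deposited TPM as well (Errfi1 24.0 to 100 against 208 to 357, and Dusp1 13.7 to 44.8 against 78.5 to 108).

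Sgk1 also did not overlap between these groups (-0.73 ± 0.43 log2, adjusted p = 1), so 3 of 7 were separated, where 0.919% of all genes were separated downwards. Tsc22d3 (-0.84 ± 0.33), Klf9 (-0.64 ± 0.26) and Nfkbia (-0.56 ± 0.19) overlapped, and Fkbp5 differed by -0.05 ± 0.26 with an interval of -0.59 to 0.48. In all, 5 of the 7 had an unadjusted p below 0.05, where 3.48% of all genes did and 0.118% passed the adjusted threshold. Without scaling and over nuclear TPM the median of all genes was itself lower in KYDS+BGZ_L (-0.36 and -0.24 log2), so the sign of a member in those settings does not set it apart, and Fkbp5 was then at -0.36 and -0.30. This comparison uses the same KYDS libraries as KYDS against CON, so a high or low KYDS group enters both.

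Among themselves the 7 genes fell into patterns that differed by pair. Over the 20 livers Dusp1 and Errfi1 had a Pearson r of 0.765 on log2 levels, and 0.727 after removal of the group means. Tsc22d3 and Nfkbia had an r of 0.861, and 0.615 after that removal. Dusp1 and Fkbp5 ran in opposite directions (r = -0.516, and -0.157 with group means removed), and Errfi1 and Nfkbia had an r of -0.00108. All genes of a liver share its library, its scaling factor and its mitochondrial share, so these values describe the livers and carry no test.

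**Figure D4:**
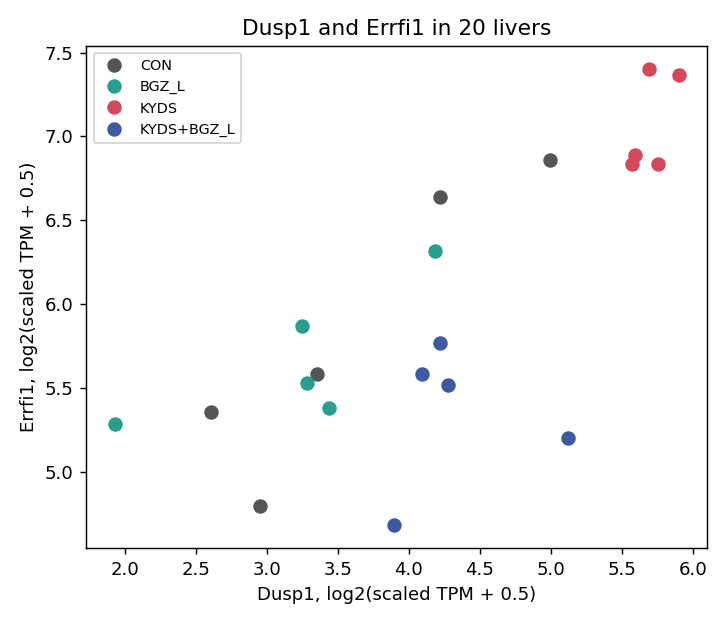
Errfi1 against Dusp1 in 20 livers, both as log2(scaled TPM + 0.5), coloured by group. The 5 KYDS livers sit at the upper right, apart from the KYDS+BGZ_L livers, and the r over all points is 0.765.

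By a fixed rule the genes most alike each target over the 20 livers were named from 4180 genes with plain symbols. Dusp1 was most like Oaf (r = 0.919), Sec16b (0.903) and Kdm3a (0.896). Errfi1 was most like Herpud1 (r = 0.893), a gene of endoplasmic reticulum protein quality control, Slc25a10 (0.870) and Slc25a25 (0.851). Nfkbia was most like the clock gene Per2 (r = 0.911), Kalrn (0.900) and Glra2 (0.886), but with group means removed its r with Per2 was 0.312. Klf9 was most like the thyroid hormone receptor gene Thrb (r = 0.765), Ddi2 (0.756) and the clock output gene Dbp (0.752). Tsc22d3 was most like Zfp354a (r = 0.854), Gpt2 (0.817) and Alas1 (0.815). Fkbp5 was most like Osbpl9 (r = 0.915), Dhdds (0.805) and Nedd4l (0.798), and Sgk1 most like Spata9 (0.867), Tmem131 (0.858) and Tcf7l1 (0.857). With group means removed, Osbpl9 kept an r of 0.861 with Fkbp5 and Spata9 one of 0.838 with Sgk1.

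Other genes known to be induced through the receptor also moved in both directions. Of 34 tested, 1 rose and 4 fell between KYDS and CON (14.7%, where 5.67% of all genes passed), with a median difference of -0.08 log2. The glucose-6-phosphatase gene G6pc rose by 5.79 ± 0.98 (limma adjusted p = 0.00299), from a CON group in which 3 of 5 libraries are listed at 0. Arrdc2, an arrestin-domain gene, fell by 2.22 ± 0.56 (limma adjusted p = 0.0275), and not without CON 2, KYDS 3 or KYDS 5 (0.0827 at the most). The annexin gene Anxa1 fell by 1.57 ± 0.34 (limma adjusted p = 0.016), but did not pass without scaling (-0.31, adjusted p = 0.601), over nuclear TPM (-1.56, 0.213) or with the mitochondrial covariate (-1.03, 0.558). Between KYDS+BGZ_L and BGZ_L 3 rose and 5 fell (23.5%, where 17.1% of all genes passed), with a median of -0.40. G6pc rose by 3.79 ± 0.98 (limma adjusted p = 0.0137) and the lipase inhibitor gene Angptl4 by 2.10 ± 0.62 (limma adjusted p = 0.0257, and 0.0758 at the most without BGZ_L 2, BGZ_L 3, BGZ_L 4, KYDS+BGZ_L 1, KYDS+BGZ_L 4 or KYDS+BGZ_L 5). The aspartate transaminase gene Got1 fell by 2.09 ± 0.33 (limma adjusted p = 8.7e-04; -1.21 without scaling, 0.105). The clock repressor Per1, a target with a known response element, fell there by 1.37 ± 0.33 (limma adjusted p = 0.00898; -0.90 without scaling, 0.105) and was at -0.52 ± 0.33 in KYDS against CON (adjusted p = 0.344; 0.30 without scaling). Between KYDS+BGZ_L and KYDS the tyrosine aminotransferase gene Tat fell by 1.47 ± 0.26 (limma adjusted p = 0.0201, and 0.0862 at the most without KYDS 1, KYDS 2, KYDS+BGZ_L 2, KYDS+BGZ_L 3 or KYDS+BGZ_L 5). Tat was the only 1 of the 34 to pass (2.94%, where 0.118% of all genes passed), and Per1 was at -0.73 ± 0.33 (adjusted p = 1). Between BGZ_L and CON 0 of 34 passed, where 0% of all genes did, with Per1 at 0.11 ± 0.33.

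Of 17 tested genes of the receptor, its chaperones, coregulators and steroid enzymes, 0 passed in KYDS against CON in limma. Of all genes 5.67% passed in that comparison. In KYDS+BGZ_L against BGZ_L 2 rose and 1 fell, a share of 17.6% that is close to the 17.1% of all genes. Hsd11b1, which regenerates active glucocorticoid, rose by 2.03 ± 0.36 log2 (limma adjusted p = 0.00214). Hexim1 rose by 0.70 ± 0.24 (limma adjusted p = 0.0479) and the corepressor gene Ncor1 fell by 1.12 ± 0.37 (limma adjusted p = 0.0412), where Hexim1 passed in 7 of 20 fits without 1 library (without BGZ_L 1, CON 3, KYDS 1, KYDS 2, KYDS 3, KYDS 4 or KYDS+BGZ_L 2; highest adjusted p otherwise 0.138) and Ncor1 failed without BGZ_L 2, BGZ_L 3, BGZ_L 4, KYDS+BGZ_L 1, KYDS+BGZ_L 3 or KYDS+BGZ_L 4 (at most 0.119). The receptor gene Nr3c1 was at 0.33 ± 0.25 and 0.34 ± 0.25 with hydrocortisone without and with BGZ_L (adjusted p = 0.436 and 0.364), at -0.13 ± 0.25 for BGZ_L alone and at -0.12 ± 0.25 for BGZ_L with hydrocortisone.

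Of 20 tested close relatives of the 7 genes, 2 rose and 1 fell in KYDS against CON, and 2 rose and 3 fell in KYDS+BGZ_L against BGZ_L, or 15.0% and 25.0% where 5.67% and 17.1% of all genes passed. Tsc22d1, a relative of Tsc22d3, rose by 1.56 ± 0.26 log2 (limma adjusted p = 0.00287) and the kinase gene Sgk2 by 0.80 ± 0.22 (limma adjusted p = 0.0397). Klf13, a relative of Klf9, fell by 1.15 ± 0.33 (limma adjusted p = 0.0437) and was at -1.28 ± 0.33 with BGZ_L (limma adjusted p = 0.0127). Sgk2 did not pass without CON 1, CON 2, CON 3, any 1 KYDS rat or KYDS+BGZ_L 5 (adjusted p at most 0.105), nor Klf13 in KYDS against CON without any 1 CON rat, KYDS 1, KYDS 2, KYDS 3, KYDS 5 or KYDS+BGZ_L 5 (at most 0.119). The NF-kB cofactor gene Bcl3 rose by 1.61 ± 0.32 with BGZ_L (limma adjusted p = 0.00383) and the receptor kinase gene Erbb3 by 1.22 ± 0.39 (limma adjusted p = 0.0354, and 0.106 at the most without BGZ_L 2, BGZ_L 3, KYDS+BGZ_L 1, KYDS+BGZ_L 4 or KYDS+BGZ_L 5). Of 11 NF-kB genes only Tnfaip2 (9.09% of the list) rose in KYDS (1.51 ± 0.41, limma adjusted p = 0.0367, and 0.0858 at the most without CON 1, CON 2, CON 3 or any 1 KYDS rat), and 0 passed in KYDS+BGZ_L against BGZ_L.

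Dusp1 and Errfi1 are also known from the immediate-early response to stress and growth factors, so its genes are given beside them. Of 14 tested immediate-early genes 7.14% and 28.6% passed in the 2 hydrocortisone comparisons, where 5.67% and 17.1% of all genes did. Only Jun rose in KYDS against CON (1.34 ± 0.39 log2, limma adjusted p = 0.0487, passing in 4 of 20 fits without 1 library, those without CON 4, BGZ_L 1, BGZ_L 3 or KYDS 1, and at most 0.125 otherwise). In KYDS+BGZ_L against BGZ_L 3 rose and 1 fell, with Ier2 at 1.48 ± 0.38 (limma adjusted p = 0.0124), Junb at 1.5 ± 0.51 (limma adjusted p = 0.0477, passing in 6 of 20 fits, those without CON 2, CON 3, CON 4, BGZ_L 1, KYDS 3 or KYDS 5 (the last just below the threshold), and at most 0.122 otherwise) and Fosl2 at -1.99 ± 0.56 (limma adjusted p = 0.0197, and 0.0622 at the most without BGZ_L 3, KYDS+BGZ_L 1 or KYDS+BGZ_L 4). None passed between KYDS+BGZ_L and KYDS, where 0.118% of all genes did. Of 16 tested clock genes 18.8% and 56.2% passed with hydrocortisone alone and with BGZ_L, where 5.67% and 17.1% of all genes did. In KYDS against CON 3 fell, Cry1 at -1.85 ± 0.46, Per2 at -1.28 ± 0.30 and Tef at -0.71 ± 0.20 (limma adjusted p = 0.0282, 0.0213 and 0.0463), the last 2 with the opposite sign without scaling (0.05 and 0.65). Cry1 did not pass without CON 1, CON 2, CON 5, KYDS 3 or KYDS 5 (adjusted p at most 0.0828), nor Per2 without CON 2, KYDS 3 or KYDS 5 (at most 0.0613). Tef passed in 6 of 20 fits, those without CON 4, BGZ_L 1, BGZ_L 2, BGZ_L 3, BGZ_L 4 or KYDS+BGZ_L 1 (at most 0.110 otherwise). In KYDS+BGZ_L against BGZ_L 8 of the 16 fell and 1 rose, led by Dbp at -4.42 ± 0.37, Per2 at -3.66 ± 0.30 and Nr1d1 at -2.55 ± 0.29. Between KYDS+BGZ_L and KYDS 4 of the 16 fell (25.0%, where 0.118% of all genes passed), with Dbp at -3.35 ± 0.37, Per3 at -2.42 ± 0.46 (adjusted p = 0.0342, and 0.143 at the most without CON 1, BGZ_L 5, KYDS 1, KYDS 2, KYDS 5 or any 1 KYDS+BGZ_L rat) and Per2 at -2.28 ± 0.30. Dbp (-4.12 ± 0.53) and Nr1d1 (-2.77 ± 0.41) also passed as interactions (limma adjusted p = 0.0022 and 0.0105), and neither did so without scaling (0.266 and 0.634) or over nuclear TPM (0.0977 and 1). Without CON 2 and BGZ_L 3 the interaction of Nr1d1 did not pass (limma adjusted p = 0.0831), and that of Dbp did (0.0133). As interactions 12.5% of the clock genes and 0.0253% of all genes passed. The part of the sampling hour in these values was not tested, since the labels give none.

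Of the calls named from these lists, 5 of 11 in KYDS against CON passed without scaling, 1 of 11 (G6pc) over nuclear TPM, 4 of 11 with no filter and 0 of 11 with the mitochondrial covariate. Of all genes 5933 of 12168, 92 of 13683, 361 of 19797 and 15 of 11860 passed in these settings, in the same order. In KYDS+BGZ_L against BGZ_L 11 of 16 passed without scaling, 8 of 16 over nuclear TPM, 12 of 16 with no filter and 8 of 16 with the covariate, Bcl3, Dbp, Hsd11b1, Nr1d1 and Per2 in all of these settings. There 2042 of 12168, 577 of 13683, 1626 of 19797 and 655 of 11860 of all genes passed. The named calls were picked as passing in the reported fit. In KYDS+BGZ_L against KYDS Tat did not pass without scaling (-1.93, adjusted p = 0.526) or over nuclear TPM (-1.76, adjusted p = 0.373).

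Markers of other cell types are given beside the hydrocortisone results. Deposited TPM of nuclear genes share their total with the mitochondrial genes, so both scales are given. The summed deposited TPM of the 8 hepatocyte markers was 1595 to 10603 in CON, 2147 to 7375 in BGZ_L, 8557 to 110695 in KYDS and 9138 to 70711 in KYDS+BGZ_L. That of the 7 Kupffer cell markers, all above 0 in every library, was 7.04 to 38.7, 12 to 272, 67.8 to 178 and 36.4 to 169 in the same order. For the 4 neutrophil markers, none of them above 0 in every library, it was 0.70 to 7.21, 0 to 18.7, 11.3 to 29.1 and 12.8 to 28.9. On scaled TPM the median sums in CON and KYDS were 6794 and 16830 for hepatocyte, 32.0 and 51.2 for Kupffer cell, 6.44 and 9.25 for neutrophil, 46.6 and 41.4 for endothelial, and 23.1 and 18.1 for stellate cell markers. In BGZ_L and KYDS+BGZ_L they were 5750 and 22540, 37.7 and 53.4, 2.68 and 18.8, 46.9 and 43.6, and 23.5 and 18.0 in the same order. Cholangiocyte sums went from 11.3 to 8.26 and from 2.63 to 10.2, lymphocyte sums from 2.36 to 2.32 and from 2.87 to 2.09, and erythroid sums from 716 to 1412 and from 933 to 1146. No marker was at 0 in every library. The sums weigh the most abundant markers most. Singly, 1 of 8 hepatocyte markers passed in KYDS against CON (12.5%, where 5.67% of all genes did), with differences from 0.01 (Ass1) to 2.32 (Ttr) log2. Of the 7 Kupffer cell markers 1 passed (14.3%), with differences from -0.39 (Adgre1) to 1.775 (Cd163). In KYDS+BGZ_L against BGZ_L 37.5% and 14.3% of these 2 lists passed, where 17.1% of all genes did. Of the neutrophil markers 2 were tested, and 2 were higher there (100%, median 1.90 log2), while 0 passed in KYDS against CON. The endothelial, stellate, cholangiocyte, lymphocyte and erythroid lists had 0 passing in either comparison. In bulk tissue fewer cells of a type and less RNA per cell cannot be told apart, and the part of these cells in the results was not tested. When the nuclear to mitochondrial ratio (log2) entered the fit as a covariate, no member passed in KYDS against CON (Dusp1 1.82, adjusted p = 0.282; Errfi1 0.80, 0.746; Nfkbia -0.69, 0.487). With it Nfkbia (-1.36, adjusted p = 0.00133) and Tsc22d3 (-1.66, 0.0117) passed in KYDS+BGZ_L against BGZ_L and Klf9 did not (-0.91, 0.0726).

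**Figure D5:**
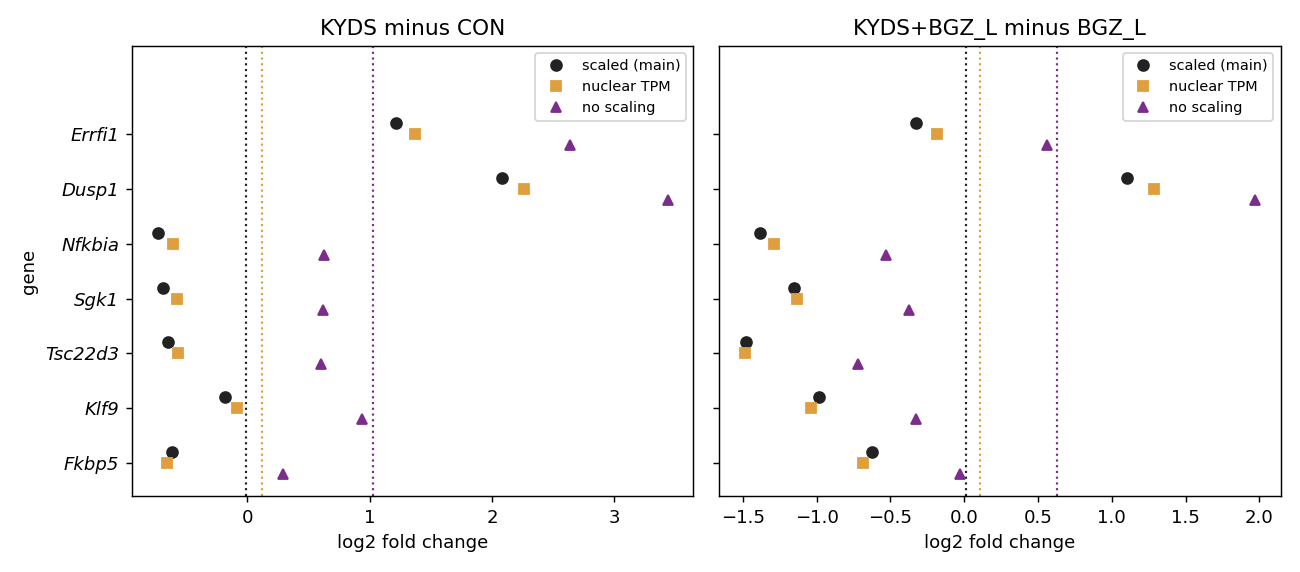
Log2 fold changes (horizontal axes) of the 7 genes with hydrocortisone without (left) and with BGZ_L (right), under the main scaling, over nuclear TPM and without scaling. Dotted lines give the median of all genes under each. Without scaling all 7 genes are above 0 on the left, but only Errfi1 (2.64) and Dusp1 (3.44) lie beyond the all-gene median of 1.03.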

How the data were processed

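The authors deposited 1 table for 20 rat liver libraries. Per the labels, RNA was extracted with Trizol, and only read 1 of each pair was analysed. The aligner and counter: not given in the sources used here. Mouse builds (GRCm38, mm10, GRCm39) stand in the submitters' processing notes, while the table has rat Ensembl identifiers. The table is named as raw counts, but the deposited values have 2 decimals, sum to 914343 to 983962 per library and show no common step, so they were read as TPM. Depth is unknown and no count test was used. Groups and replicate numbers come from the sample titles. Per the labels each library is a separate rat, so p-values measure the spread between rats.

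Values were divided by a trimmed mean of log ratios against the geometric mean profile (trimming 30% of the ratios and 5% of the levels from either end). Genes at 0.5 scaled TPM or more in at least 5 libraries were tested (11860) as log2 of the scaled TPM plus 0.5, in 1 limma fit of 4 group means with a trended, robust prior and 16 residual degrees of freedom, at an adjusted p of 0.05. Tools were R 4.3.3, limma 3.58.1, data.table (version 1.17.8), Python 3.11.15 and matplotlib 3.10.9. The procedure was tested on simulated data for KYDS against CON with 11530 genes: 18 of 100 genes changed by 1 log2, 75 of 100 changed by 2 log2 and 7 unchanged genes were called. The changed genes were drawn from those with a mean log2 value of at least 1, so detection of lower genes was not measured. The simulated spread was independent between genes. The 7 genes, the lists and the tests were chosen with earlier results of these data known. From each list up to 3 passing genes with the largest change were named, and Nr3c1 and Per1 always. Genes alike were the 3 with the highest Pearson r, plain symbol and mean log2 value of at least 2. Of 30 pairs of libraries with the same replicate number, 7 had correlated deviations above 0.1 (-0.456 to 0.337), so no block was used. No 2 libraries were identical. Alternatives were the scaling, nuclear TPM, the added constant, the filter, the replicate block, a nuclear to mitochondrial covariate and libraries left out.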

Additional observations from a re-analysis of the deposited data

Results flagged for a closer look

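With Dixon's test at the 95% level in 28 groups of 5 libraries, of which chance flags about 1 in 20, 2 values stood apart. Dusp1 in KYDS+BGZ_L 5 was at 34.3 scaled TPM, where the next liver of the group was at 18.8. Fkbp5 in KYDS 4 was at 1.57 scaled TPM, where the next was at 0.838. KYDS 4 also had the highest mitochondrial share of its group (68.8%).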

How the results depend on the processing

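Between KYDS and CON 3 of the 7 genes passed. This became 2 with no filter (Errfi1 lost), 2 without scaling (Nfkbia lost), 1 over nuclear TPM, 0 with the nuclear to mitochondrial covariate, 1 without CON 2 and BGZ_L 3, and 1 to 3 without 1 library. All-gene counts moved too, from 672 of 11860 in the reported fit. In the same order they were 361 of 19797, 5933 of 12168, 92 of 13683, 15 of 11860 and 259 of 11969. Without 1 library they ran from 197 (without KYDS 3) to 1022 (without CON 4). Between KYDS+BGZ_L and BGZ_L 3 passed, with 1 without scaling (Dusp1), 0 over nuclear TPM, 2 with the covariate and 2 to 5 without 1 library. Here 2031 of 11860 of all genes passed in the reported fit. In the same order 2042 of 12168, 577 of 13683 and 655 of 11860 did. Without 1 library it was 1072 (without KYDS+BGZ_L 4) to 2505 (without BGZ_L 1). Between KYDS+BGZ_L and KYDS 0 passed, with 1 (Errfi1) using a constant of 1, the covariate or the set without CON 2 and BGZ_L 3, and 0 to 1 without 1 library. Of all genes 14 of 11860 passed in the reported fit, and 18 of 11860, 23 of 11860 and 18 of 11969 in those named settings. BGZ_L against CON and the interaction stayed at 0 under every alternative run, where at most 4 and 5 of all genes passed. The cause of these differences was not tested. Signs turned without scaling for KYDS against CON in Fkbp5 (0.294), Tsc22d3 (0.605), Sgk1 (0.620), Klf9 (0.936), Nfkbia (0.626), Per1 (0.302), Per2 (0.046) and Tef (0.649), for KYDS+BGZ_L against BGZ_L in Errfi1 (0.564) and for BGZ_L against CON in Tsc22d3 (0.050). Over nuclear TPM they turned for BGZ_L against CON in Klf9 (-0.043), Nfkbia (-0.186) and Per1 (-0.136). With the covariate they turned for KYDS against CON in Sgk1 (0.257) and Nr3c1 (-0.091) and for BGZ_L against CON in Fkbp5 (0.014), and without CON 2 and BGZ_L 3 for the Fkbp5 interaction (0.144). Leaving out 1 library, Klf9 ran from -0.385 to 0.030 in KYDS against CON. In BGZ_L against CON the ranges were -0.181 to 0.085 (Fkbp5), -0.172 to 0.096 (Tsc22d3), -0.494 to 0.088 (Sgk1), -0.434 to 0.083 (Errfi1) and -0.203 to 0.298 (Per1). In KYDS+BGZ_L against KYDS they were -0.131 to 0.107 (Fkbp5) and -0.319 to 0.022 (Nr3c1), and -0.134 to 0.146 for the Fkbp5 interaction. The mitochondrial share difference ran from -39.3 to -26.9 points for hydrocortisone alone and from -25.4 to -12.9 with BGZ_L. Whether the replicate numbers pair the rats is not known from the labels, and the reported fit used no pairing. With a replicate block, 2 of the 7 passed in KYDS against CON (Errfi1 1.22, adjusted p = 0.0520) and 4 in KYDS+BGZ_L against BGZ_L (Fkbp5 -0.62, adjusted p = 0.0403). Of all genes 566 and 1885 of 11860 passed with that block. Depth is unknown, so no limit from counting can be given.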

Other observations

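The spread between rats differed between groups and between the 7 genes. Dusp1 was at 14.4 ± 10.6 scaled TPM (SD, n = 5) in CON and at 51.8 ± 4.97 in KYDS. Sgk1 was at 8.59 ± 6.96 in CON and at 2.19 ± 0.192 in KYDS+BGZ_L, while Tsc22d3 was at 4.56 ± 2.98 in KYDS and at 2.07 ± 0.668 in KYDS+BGZ_L. The spreads were not compared by a test.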
